A study of Xenopus laevis with 4 samples.

Results

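In 51 homeolog pairs of the Xenopus laevis gastrula, one gene copy carried almost all of the reads and its partner copy carried few. X. laevis is an allotetraploid frog, and for many genes it keeps a copy on a long chromosome (named .L) and a copy on the matching short chromosome (named .S), which are called homeologs. Pairs were chosen by the normalized counts of the control libraries. A pair was taken when one homeolog had a normalized count of 1000 or more in both control libraries and the other had at most a 32nd part of it in both. Symbols starting with LOC, XB or MGC and the families hox, fox, bmp, wnt, fzd, sox, gata, rpl, rps, nduf, atp5, krt and cldn were left out. The table held 21531 genes with 5640 homeolog pairs. Of the 5421 pairs left after the families were removed, 1094 had a homeolog at 1000 or more in both controls, and the 51 pairs (102 genes) are 4.66% of these. The homeolog with the reads is called dominant and its partner minor. The control values chose the pairs, so their dominance in the controls is a description and was not tested.

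The study isolated ventral (ventrolateral mesoderm) tissue of gastrulating embryos and sequenced polyadenylated RNA with Smart-seq2, which amplifies full-length cDNA. The sox8 CRISPR group (2 libraries) came from embryos injected with Cas7-11 mRNA and sox8 guides. Cas7-11 is a CRISPR effector that cuts RNA and leaves the genome as it is, and the guides were designed against the 3′ UTR of the sox8 mRNA. The control group (2 libraries) came from embryos injected with Cas7-11 mRNA and no guides, so both groups carried the effector, and per the study's methods a tracer, neither of which was limited to a cell type by a promoter. The labels number the libraries as embryo 1 and 2 of each group. They do not state how many embryos or clutches were pooled, so p-values measure only the spread between these libraries.

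Homeologs arose when the genomes of 2 related frog species were joined in 1 hybrid ancestor. Since then many copies have been lost, while other genes have kept both copies with unequal or divided expression. Copies on the L chromosomes are known to have been lost less often than those on the S chromosomes. The messages of a gastrula come in part from the egg and in part from the embryo's own genome, and reads per gene do not separate these.

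The recovered reads on genes were 24108577 and 18427818 in the sox8 CRISPR libraries and 18189895 and 20783274 in the controls. Of the 21531 genes, 667 and 3862 were at 0 in the sox8 CRISPR libraries, against 1290 and 989 in the controls, so sox8 CRISPR replicate 2 lacked the most genes. The targeted gene sox8.L had a normalized count of 26.9 and 25.4 in sox8 CRISPR and 508 and 927 in control libraries. sox8.S had 134 and 0 in sox8 CRISPR and 14.1 and 43.7 in control libraries, so these groups overlapped. All 14 genes counted from a ventral mesoderm list (ventx1, ventx2, bmp4, szl, bambi, msx1 and gata2) had lower values in each sox8 CRISPR library than in either control. Their sums were 3136 and 5616 in sox8 CRISPR and 47744 and 54385 in control libraries. The symbol ventx3 was listed too but entered no value, and the measured genes ventx1.2, ventx2.2 and ventx3.2 were not counted. Of 17 dorsal organizer genes (among them chrd, nog, gsc and admp), 11 had higher values in each sox8 CRISPR library than in either control and 0 had lower ones. nog.S and admp.S were not among the 11. The sums of all 17 were 60138 and 7160 in sox8 CRISPR and 809 and 1052 in control libraries. Higher and lower by the same measure were 6 and 2 of 12 general mesoderm genes and 5 and 1 of 9 neural plate genes. For 9 endoderm genes they were 2 and 2, and for 7 epidermis genes 2 and 0. The genes chrd.1.L and chrd.2.L were at 0 in both controls. In bulk tissue, fewer cells of a type and less RNA per cell cannot be told apart, and the part of tissue composition in the results below was not tested.

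The L homeolog was dominant in 32 of the 51 pairs (62.7%) and the S homeolog in 19. Among all 1094 expressed pairs, L was the higher copy in both controls in 499 (45.6%) and S in 475 (43.4%). The rest had no copy higher in both controls, so these shares have another base than the 62.7%. On counts, L and S were near each other there. The L share differed little with the fold asked in both controls. It was 54.0% of the 569 pairs at 2-fold or more, 56.9% of 304 at 4-fold, 58.4% of 161 at 8-fold, 58.1% of 86 at 16-fold and 53.6% of 28 at 64-fold. Over these thresholds L made up between 53.6% and 62.7% of the pairs, and the differences between shares were not tested since the lists are nested. Counting only members whose 95% exact counting interval stayed at 32-fold or more in both controls left 38 pairs, of which 24 were L-dominant.

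**Figure D1:**
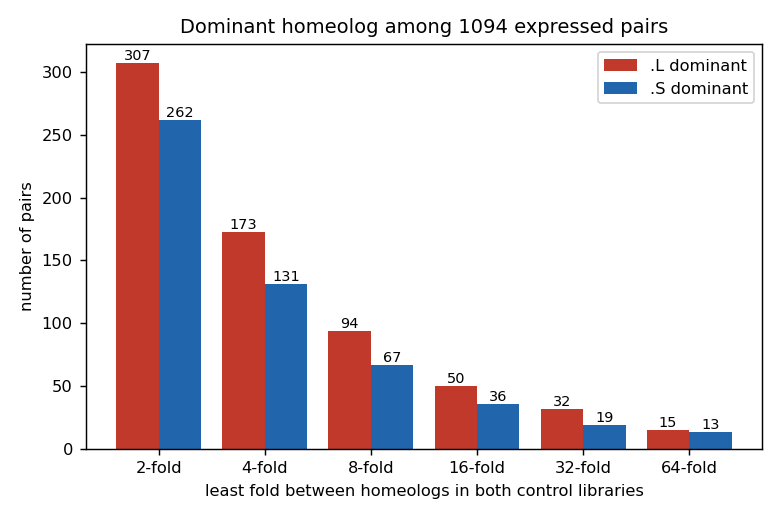
Bars give the number of expressed pairs (one homeolog at a normalized count of 1000 or more in both controls) in which L (red) or S (blue) was higher by at least the fold on the x axis in both control libraries. At 32-fold the bars stand at 32 L-dominant and 19 S-dominant pairs, and L is the taller bar at each of the 6 thresholds.

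The pairs spanned a wide range of levels. The dominant homeologs lay between 262 and 77710 in sox8 CRISPR replicate 1 (median 3049), between 319 and 55398 in replicate 2 (median 3921), between 1142 and 168564 in control replicate 1 (median 3896) and between 1126 and 67958 in control replicate 2 (median 3661). The minor homeologs had medians of 35.6 and 25.4 in sox8 CRISPR and 32.8 and 29.4 in control libraries. The highest minor homeolog, eef1a1o.L, reached 1788 and 2174 in sox8 CRISPR and 2263 and 1873 in control libraries, so a minor copy is not always a silent one. No minor homeolog was at 0 in a control library or in sox8 CRISPR replicate 1, while 15 were at 0 in sox8 CRISPR replicate 2. The deposited values were filtered to genes with a mean of at least 5, so a pair with a partner below that could not be chosen. At 1000 or more in both controls, 12 L and 8 S symbols lacked a measured partner that RefSeq annotates. The lack of zeros and the count of 51 pairs thus depend in part on this filter. Levels are reads per gene and not per length, and the ratio within a library does not depend on its size factor.

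**Figure D2:**
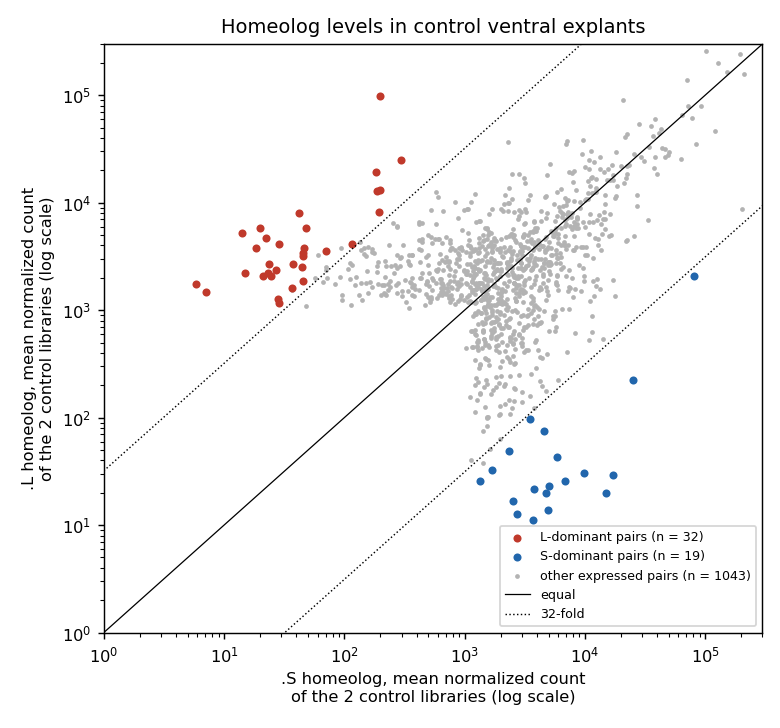
Each point is 1 of the 1094 expressed pairs, with the mean normalized count of the S homeolog (x axis, log scale) and of the L homeolog (y axis, log scale) in the 2 control libraries. The 32 L-dominant (red) and 19 S-dominant (blue) pairs lie beyond the dotted 32-fold lines by the rule that chose them, and the 1043 other pairs (grey) lie on both sides of the line of equal counts, a few of them beyond a dotted line by their mean but not in each control.

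In the sox8 CRISPR libraries, which the rule did not use, the same homeolog stayed the higher one in 51 of 51 pairs in each library. The 32-fold limit was met by 40 pairs in sox8 CRISPR replicate 1, by 43 in replicate 2 and by 36 (70.6%) in both. These 36 were 24 of the 32 L-dominant and 12 of the 19 S-dominant pairs. A further 11 pairs met it in 1 of the libraries, and 4 met it in neither. All 51 pairs stayed 2-fold or more apart in both sox8 CRISPR libraries, 50 stayed 8-fold or more apart and 43 stayed 16-fold or more apart. Among the 923 other expressed pairs with a constant higher homeolog in the controls, 9 (0.975%) were 32-fold apart in both sox8 CRISPR libraries, and in 43 (4.66%) the other homeolog was higher in both. Members started at 32-fold or more by the rule, while these other pairs could be near equal in the controls. The shares are thus not on the same footing, and none at a matched starting fold was made. The median fold of the 51 pairs was 71.3 in sox8 CRISPR replicate 1 and 192 in replicate 2, against 121 and 118 in the controls.

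**Figure D3:**
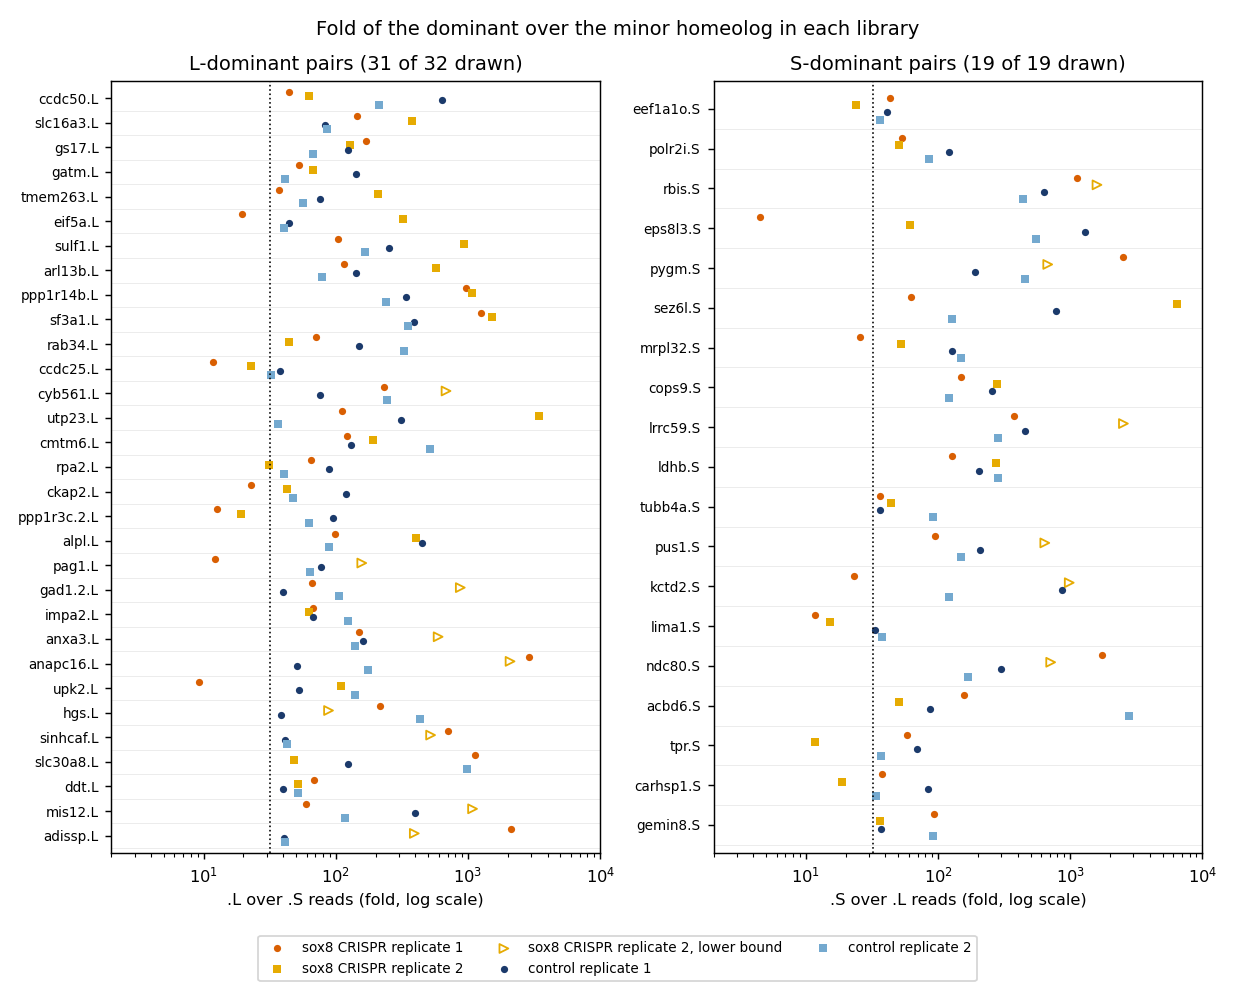
Each row is a pair (50 of the 51 are drawn), with the fold of the dominant over the minor homeolog (x axis, log scale) in sox8 CRISPR replicates 1 and 2 (orange and yellow) and control replicates 1 and 2 (dark and light blue). Open triangles are lower bounds in sox8 CRISPR replicate 2, where 15 minor homeologs had 0 reads, and the lowest point is eps8l3 at 4.47-fold in sox8 CRISPR replicate 1 (dotted line, 32-fold).

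A limit applied to libraries that did not set it loses some pairs even between replicates. Of 74 pairs chosen in control replicate 1 alone, 62.2% and 73.0% kept 32-fold dominance in sox8 CRISPR replicates 1 and 2, against 81.1% (60 pairs) in control replicate 2. Of 93 pairs chosen in control replicate 2 alone, 60.2% and 66.7% kept it in sox8 CRISPR replicates 1 and 2, against 74.2% (69 pairs) in control replicate 1. Each share in a sox8 CRISPR library was thus below the share in the other control library, by between 7.5 and 18.9 percentage points, and with 2 libraries a group this was not tested. Of 84 pairs chosen in sox8 CRISPR replicate 1, 72.6% kept the limit in replicate 2, beside 64.3% and 75% in the controls. Of 136 chosen in sox8 CRISPR replicate 2, 47.1% kept it in replicate 1, beside 50% and 45.6% in the controls. For pairs chosen in sox8 CRISPR libraries, the control shares thus lay on both sides of the share in the other sox8 CRISPR library. sox8 CRISPR replicate 2 gave the longest list and also held the most zeros, whose part in this was not tested. Of 9135 genes with a control mean between 5 and 100, 31.9% were at 0 in that library and 4.92% in sox8 CRISPR replicate 1, against 4.03% and 2.36% in the controls. The minor homeologs in that range were at 0 there in 15 of 42 (35.7%), near the share of all such genes, and the median fold of 192 in that library includes the lower bounds of these 15 pairs.

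**Figure D4:**
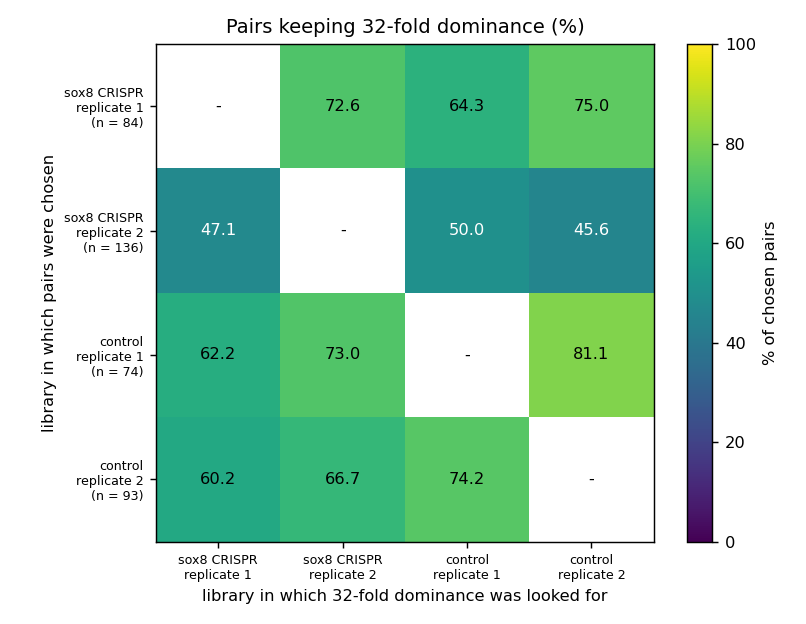
Each cell gives the percent of pairs chosen in the library of its row (n pairs) that met the 32-fold limit in the library of its column. Control-chosen pairs kept it in 60.2% to 73.0% in sox8 CRISPR libraries and in 81.1% and 74.2% in the other control library, and the row of sox8 CRISPR replicate 2 is the lowest.

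When the same rule was applied to both sox8 CRISPR libraries in place of the controls, it chose 52 pairs, 34 of them L-dominant. The lists shared 33 pairs, which are 63.5% of the sox8 CRISPR list and 64.7% of the control list. Of the 19 pairs only on the sox8 CRISPR list, 13 were 16-fold or more apart in both controls, and in 1 the other homeolog was higher in a control library. Their lower control fold had a median of 25.4, and in 6 of the 19 the dominant homeolog was at 1000 or more in both controls. The other 13 were below the minimum level in a control, and part of these were also below 32-fold in a control. Of all 52 pairs, 39 were 32-fold apart in both controls. Just inside the limit in the controls were ccdc25 (lowest control fold 32.5), lima1 (33.4) and carhsp1 (33.7), and just outside were gtf2b (31.0), tdrp (30.4) and ess2 (30.0).

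The largest of the groups set by hand, 17 pairs, was placed under membranes, cell junctions, the cytoskeleton or cilia, with 12 L-dominant and 5 S-dominant pairs. It also holds sulf1, which is secreted, and acbd6, while slc16a3 and sez6l, for membrane proteins, were placed in other groups. The grouping by known role was made by hand after the members were known. It was not made for the other expressed pairs, so group sizes have no background. In 12 of the 17, dominance held at 32-fold in both sox8 CRISPR libraries. The S homeolog of eps8l3, for an EPS8-family protein, was the exception in size. eps8l3.S (chromosome 2S, 61155114 to 61229457, v10.1) had 262 and 1562 in sox8 CRISPR and 14030 and 15880 in control libraries. Both sox8 CRISPR values were below both control values. eps8l3.L (chromosome 2L, 69053190 to 69110495) had 58.7 and 25.4 in sox8 CRISPR and 10.9 and 28.6 in control libraries, and its groups overlapped. The excess of S over L was 4.47-fold and 61.5-fold in sox8 CRISPR and 1283-fold and 555-fold in control libraries, so the narrower ratio came with a lower S level. This was the lowest fold of any member in any library, with a 95% counting interval of 3.56 to 5.65 that covers counting error only.

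Among the cytoskeletal genes, lima1 (an actin crosslinking protein) was 1 of the 4 pairs below 32-fold in both sox8 CRISPR libraries. lima1.S had 4374 and 3419 in sox8 CRISPR and 2503 and 4512 in control libraries, which overlapped, while lima1.L had 375 and 224 in sox8 CRISPR and 74.96 and 119 in control libraries, which did not. The β-tubulin gene tubb4a belongs to a family with closely similar coding sequences, so its counts are uncertain where reads fit several members. tubb4a.S kept a fold of 36.6 and 44.0 in sox8 CRISPR and 36.1 and 92.3 in control libraries.

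2 small GTPases of vesicle traffic and cilia were both L-dominant and both kept the limit. arl13b.L, a ciliary GTPase, had 3316 and 5527 in sox8 CRISPR and 9287 and 2424 in control libraries, against an S copy of 28.7 and 9.67 in sox8 CRISPR and 65.6 and 31.0 in control libraries. rab34.L, which acts in the making of cilia, was 71.3-fold and 44.3-fold above rab34.S in sox8 CRISPR and 150-fold and 328-fold above it in control libraries. Its ratio was thus smaller in each sox8 CRISPR library than in either control. sulf1 encodes a secreted sulfatase that trims heparan sulfate and so acts on growth factor signalling outside the cell. sulf1.L had 3049 and 2270 in sox8 CRISPR and 5895 and 10206 in control libraries, lower in both sox8 CRISPR libraries. sulf1.S had 29.4 and 2.42 in sox8 CRISPR and 23.4 and 61.2 in control libraries, the 2.42 being 2 reads. The fold of 939 that these reads give in sox8 CRISPR replicate 2 has a counting interval of 260 to 7759.

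upk2 and pag1 were each under the limit in sox8 CRISPR replicate 1 only. upk2 encodes a uroplakin, a membrane protein of urothelium in mammals. upk2.L had 4032 and 9157 in sox8 CRISPR and 1649 and 2550 in control libraries, and upk2.S had 435 and 83.4 in sox8 CRISPR and 31.2 and 18.3 in control libraries. Neither copy overlapped between groups, with higher values in sox8 CRISPR, and the fold was 9.26 and 110 in sox8 CRISPR and 52.8 and 139 in control libraries. pag1 encodes a membrane adaptor that recruits the kinase Csk. pag1.L had 704 and 569 in sox8 CRISPR and 2908 and 2430 in control libraries, again without overlap. pag1.S had 58.1 and 0 in sox8 CRISPR and 37.5 and 38.2 in control libraries, and the fold was 12.1 in sox8 CRISPR replicate 1 and at least 157 in replicate 2, where the bound sets the minor copy at 3 reads. The endoplasmic reticulum membrane protein gene lrrc59 showed one of the widest gaps, with lrrc59.S at 5421 and 9147 in sox8 CRISPR and 5705 and 4273 in control libraries. Its L copy had 14.4 and 0 in sox8 CRISPR and 12.5 and 15.1 in control libraries. tmem263.L, for another membrane protein, was 37.4-fold and 209-fold above its S copy in sox8 CRISPR and 75.8-fold and 56.7-fold above it in control libraries. Also L-dominant at 32-fold in all 4 libraries were cmtm6 (a MARVEL-domain membrane protein), cyb561 (a transmembrane electron carrier), anxa3 (an annexin), slc30a8 (a zinc transporter) and hgs (of the ESCRT sorting machinery). acbd6, for an acyl-CoA binding protein, was S-dominant at 157-fold and 50.4-fold in sox8 CRISPR and 86.5-fold and 2759-fold in control libraries, the last from 1 minor read with a counting interval of 495 to 109014.

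The 12 pairs that serve gene expression were S-dominant in 8 and L-dominant in 4, and 7 of the 12 held in both sox8 CRISPR libraries. eef1a1o, the oocyte form of the elongation factor that brings charged tRNA to the ribosome, was the highest S-dominant pair. eef1a1o.S had 77710 and 52464 in sox8 CRISPR and 93392 and 67958 in control libraries. With its L copy between 1788 and 2263 in all 4 libraries, the fold was 43.5 and 24.1 in sox8 CRISPR and 41.3 and 36.3 in control libraries. This gene too has near-identical relatives, so reads could have been split between them. eif5a, a translation factor that carries the amino acid hypusine, was L-dominant. eif5a.L had 3733 and 4311 in sox8 CRISPR and 6445 and 9858 in control libraries, lower in both sox8 CRISPR libraries. Its fold was 19.3 and 324 in sox8 CRISPR and 43.9 and 40.8 in control libraries, and the sox8 CRISPR replicates thus lay on either side of the controls.

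Transcription and splicing were each represented by a core subunit. polr2i, a subunit of RNA polymerase II, was S-dominant, and polr2i.S varied within groups (8513 and 35645 in sox8 CRISPR, 40842 and 9404 in control libraries). Its fold was steadier within groups, at 53.4 and 50.8 in sox8 CRISPR and 121 and 85.1 in control libraries. The copies thus moved together between replicates of a group, while the fold was smaller in each sox8 CRISPR library than in either control. sf3a1, a subunit of the U2 small nuclear ribonucleoprotein, was L-dominant with 4686 and 3639 in sox8 CRISPR and 6069 and 4433 in control libraries. Its S copy had 3.75 and 2.42 in sox8 CRISPR and 15.6 and 12.7 in control libraries, giving some of the widest folds of all, 1250 and 1506 in sox8 CRISPR and 389 and 349 in control libraries. gemin8, of the SMN complex that assembles splicing ribonucleoproteins, was S-dominant at 93.0-fold and 36.4-fold in sox8 CRISPR and 36.8-fold and 91.1-fold in control libraries.

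4 pairs of ribosome making and RNA modification kept the same higher copy in all 4 libraries, as all 51 members did. rbis, named for ribosome biogenesis in human cells, was S-dominant with 2809 and 5772 in sox8 CRISPR and 28678 and 5610 in control libraries. Its L copy had 4 and 0 reads in sox8 CRISPR and 29 and 16 reads in control libraries. mrpl32.S, for a protein of the mitochondrial ribosome, had 1312 and 4467 in sox8 CRISPR and 7023 and 4724 in control libraries. Its fold was 25.6 and 52.1 in sox8 CRISPR and 128 and 149 in control libraries. pus1 (a pseudouridine synthase, S-dominant) and utp23 (of the small subunit processome in yeast, L-dominant) kept the limit in all 4 libraries.

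3 further members of this group touch chromatin, the nuclear pore or RNA binding. sinhcaf, a subunit of the SIN3 histone deacetylase complex, was L-dominant with 1765 and 1888 in sox8 CRISPR and 2447 and 1319 in control libraries. Its S copy had 4 and 0 reads in sox8 CRISPR and 38 and 39 reads in control libraries. Here the dominant copy overlapped between groups while the minor copy did not. tpr, which forms the basket of the nuclear pore, was S-dominant at 58.1-fold and 11.7-fold in sox8 CRISPR and 69.3-fold and 37.0-fold in control libraries. carhsp1, a cold shock domain protein that binds RNA, was S-dominant at 37.6-fold and 18.9-fold in sox8 CRISPR and 83.3-fold and 33.7-fold in control libraries.

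Metabolism and its transporters made up 9 pairs, 7 of them L-dominant, and 8 of the 9 held in both sox8 CRISPR libraries. slc16a3, a carrier that exports lactate from cells, was among the highest members. slc16a3.L (chromosome 9_10L, 29512345 to 29523295) had 51859 and 55398 in sox8 CRISPR and 16977 and 33171 in control libraries, with both sox8 CRISPR values above both controls. slc16a3.S (chromosome 9_10S, 25626392 to 25689397) had 359 and 147 in sox8 CRISPR and 205 and 389 in control libraries. The fold was 145 and 376 in sox8 CRISPR and 83.0 and 85.3 in control libraries. ldhb, the lactate dehydrogenase subunit B, was S-dominant with 5584 and 9264 in sox8 CRISPR and 4760 and 4702 in control libraries. ldhb.L had 43.7 and 33.8 in sox8 CRISPR and 23.4 and 16.7 in control libraries, so both copies were higher in each sox8 CRISPR library and the fold, 128 and 274 in sox8 CRISPR and 203 and 282 in control libraries, overlapped.

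A pair of members act on glycogen. pygm, the muscle form of glycogen phosphorylase, was S-dominant with 4669 and 2447 in sox8 CRISPR and 5600 and 14184 in control libraries. pygm.L had 3 and 0 reads in sox8 CRISPR and 19 and 39 reads in control libraries. ppp1r3c.2, a subunit that brings protein phosphatase 1 to glycogen, was L-dominant with 5995 and 5983 in sox8 CRISPR and 1780 and 4567 in control libraries. Its S copy had 474 and 311 in sox8 CRISPR and 18.7 and 72.3 in control libraries. The fold of ppp1r3c.2 was therefore 12.6 and 19.3 in sox8 CRISPR and 95 and 63.1 in control libraries, and it was the only metabolic pair under the limit.

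The other metabolic pairs were L-dominant throughout. gatm, which makes the precursor of creatine, had 8617 and 3503 in its L copy in sox8 CRISPR and 13832 and 12421 in control libraries. Its fold was 52.7 and 67.4 in sox8 CRISPR and 143 and 41.1 in control libraries. impa2, an inositol monophosphatase, had overlapping folds of 67.4 and 62.8 in sox8 CRISPR and 66.8 and 124 in control libraries, while both of its copies lay higher in each sox8 CRISPR library. Its L copy had 5764 and 5537 in sox8 CRISPR and 2294 and 2466 in control libraries, and its S copy had 85.6 and 88.2 in sox8 CRISPR and 34.4 and 19.9 in control libraries. gad1.2 (glutamate decarboxylase), alpl (the tissue-nonspecific alkaline phosphatase) and ddt (D-dopachrome tautomerase) kept the limit in all 4 libraries.

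Cell division and genome upkeep had 6 pairs, 4 L-dominant and 2 S-dominant, and 4 held in both sox8 CRISPR libraries. The kinetochore genes ndc80 and mis12 had opposite dominant copies. ndc80.S had 2156 and 2577 in sox8 CRISPR and 2792 and 2673 in control libraries, against 2 and 0 reads of ndc80.L in sox8 CRISPR and 6 and 20 reads in control libraries. mis12.L had 1495 and 3921 in sox8 CRISPR and 1858 and 1126 in control libraries, and mis12.S had 24.99 and 0 in sox8 CRISPR and 4.68 and 9.54 in control libraries. anapc16, a subunit of the anaphase-promoting complex, was L-dominant with 1809 and 7535 in sox8 CRISPR and 1501 and 2908 in control libraries, and its S copy had 1 and 0 reads in sox8 CRISPR and 19 and 21 reads in control libraries. cops9.S, of the COP9 signalosome, had 1489 and 5774 in sox8 CRISPR and 8448 and 1641 in control libraries. Its fold of 149 and 281 in sox8 CRISPR and 258 and 121 in control libraries varied less than its level. rpa2, which binds single-stranded DNA, missed the limit narrowly in sox8 CRISPR replicate 2 (65.0-fold and 31.0-fold in sox8 CRISPR, 88.3-fold and 40.4-fold in control libraries). ckap2, a protein of the mitotic spindle, missed it in replicate 1 (22.9-fold and 42.4-fold in sox8 CRISPR, 119-fold and 47.6-fold in control libraries).

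The 7 remaining pairs, 5 of them L-dominant, include the highest member. ccdc50.L (chromosome 5L, 111645358 to 111680863), for a coiled-coil protein that binds ubiquitin, had 12558 and 33665 in sox8 CRISPR and 168564 and 28036 in control libraries. The controls thus differed from each other more than 1 of them did from sox8 CRISPR replicate 2. ccdc50.S (chromosome 5S, 91761421 to 91796099) had 286 and 538 in sox8 CRISPR and 265 and 133 in control libraries, and the fold was 43.9 and 62.6 in sox8 CRISPR and 635 and 211 in control libraries. gs17, a gene first described as gastrula-specific in Xenopus, had 27387 and 31764 in its L copy in sox8 CRISPR and 29871 and 8429 in control libraries. Its fold was 168 and 128 in sox8 CRISPR and 123 and 67.1 in control libraries. ppp1r14b.L, an inhibitor of protein phosphatase 1, was 970-fold and 1062-fold above its S copy in sox8 CRISPR and 341-fold and 241-fold above it in control libraries.

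sez6l, for a membrane protein known from neurons in mammals, was S-dominant with 2238 and 15474 in sox8 CRISPR and 8494 and 5127 in control libraries. Its fold of 6402 in sox8 CRISPR replicate 2 was the highest counted and rests on 2 minor reads, with a counting interval of 1772 to 52865. kctd2.S, for a protein with a potassium channel tetramerization domain, was 23.0-fold and at least 982-fold above its L copy in sox8 CRISPR and 871-fold and 122-fold above it in control libraries. adissp, an adipose-secreted signalling protein in mammals, was L-dominant with 1 and 0 minor reads in sox8 CRISPR and 18 and 37 in control libraries. ccdc25.L, a coiled-coil protein, had 1430 and 2154 in sox8 CRISPR and 5998 and 2300 in control libraries. Its fold was 11.7 and 22.8 in sox8 CRISPR and 37.7 and 32.5 in control libraries, and it was below the limit in both sox8 CRISPR libraries.

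The 51 pairs had no common direction between groups. The median log2 fold change (sox8 CRISPR over control, on log2 of the normalized count plus 1) was 0.02 for dominant and -0.29 for minor homeologs, beside -0.16 for all genes. It lay within 1 log2 unit of no change for 37 of 51 dominant and 21 of 51 minor homeologs, beside 52.1% of all genes. Dominant homeologs had high control counts by the rule while all genes include many with low counts. No share at a matched level was made, so these shares are not on the same footing. Of the dominant homeologs 11 were higher and 13 lower without overlap between groups, and of the minor ones 11 were higher and 11 lower. Among all genes these shares were 17% and 19.1%. With limma and Benjamini-Hochberg adjustment over all genes, 72 of 21531 genes (0.334%) were called at an adjusted p under 0.05 and a log2 fold change beyond 0.58, 31 higher (0.144%) and 41 lower (0.19%). Of the 102 homeologs 1 was called, eps8l3.S, whose log2 fold change was -4.54 (SE 0.85, limma adjusted p = 0.0212, lower in 2 of 2 sox8 CRISPR libraries). Since dominant homeologs were chosen for high control values, lower values elsewhere are favoured by the choice, and nothing is read from this count. The call of eps8l3.S was made with DESeq2 too (adjusted p = 3.168e-04), which called 1.96% of all genes. It was lost with edgeR (adjusted p = 0.106, 0.506% of all genes called), without the intensity trend (0.482) and on leaving out any 1 library (0.244 to 0.997).

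**Figure D5:**
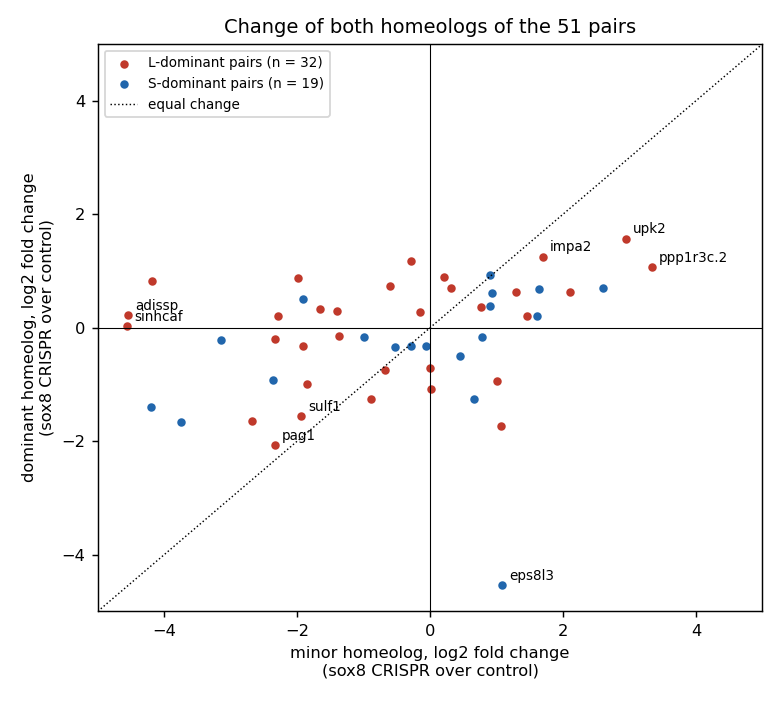
Each point is a pair, with the log2 fold change (sox8 CRISPR over control) of its minor homeolog on the x axis and of its dominant homeolog on the y axis, for L-dominant (red) and S-dominant (blue) pairs. Minor homeologs with few or 0 reads have values that depend on the added count of 1, and eps8l3 is the point at -4.54 on the y axis.

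The ratio between homeologs was also compared between groups across all 5640 pairs. limma on log2((L + 1)/(S + 1)) called 0 pairs (0%) and 0 members at an adjusted p under 0.05, with 403 pairs (7.15%) and 13 members at an unadjusted p under 0.05. With a replicate block it called 38 pairs and 2 members, without sox8 CRISPR replicate 1 it called 735 pairs and 16 members, and without sox8 CRISPR replicate 2 it called 3 pairs and 1 member. The smallest adjusted p among members was 0.531 for ccdc50, whose difference in the log2 ratio of dominant over minor (sox8 CRISPR minus control) was -2.80 (SE 0.55). This difference was -5.62 for eps8l3 (SE 1.23, limma adjusted p = 0.554) and -2.27 for ppp1r3c.2 (SE 0.56, limma adjusted p = 0.638). Pairs chosen for a wide ratio in the controls are favoured to have narrower ones elsewhere. Of the 13 members at an unadjusted limma p under 0.05, slc16a3, anapc16, sinhcaf, adissp, pygm and ndc80 had wider ratios in sox8 CRISPR and the others narrower ones. In all of these 6 except slc16a3 the minor copy was at 0 in sox8 CRISPR replicate 2. In sox8 CRISPR replicate 1 these minor copies had 1 (anapc16), 4 (sinhcaf), 1 (adissp), 3 (pygm) and 2 reads (ndc80). Their control reads were 19 and 21 (anapc16), 38 and 39 (sinhcaf), 18 and 37 (adissp), 19 and 39 (pygm), and 6 and 20 (ndc80). The intensity trend of this fit followed the mean log2 level of both copies, so a member with a low minor copy was treated like a balanced pair of that mean. The ratio of the higher over the lower homeolog was smaller without overlap between groups in 10 members (beside 25.2% of the 923 other pairs), larger in 11 (beside 17.7%) and overlapping in 30. A median member differed by 1.37 log2 units between the sox8 CRISPR libraries and by 0.88 between the controls (single libraries), and the means of 2 libraries differed by 1.25 between groups, which is not on the same footing as a difference of single libraries.

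Annotation did not set most members apart by gene size. RefSeq placed both homeologs of 44 of the 51 pairs on the v10.1 assembly (86.3%, beside 88.9% of the other expressed pairs), each on matching L and S chromosomes. All 44 minor homeologs were annotated as protein-coding. The span of the dominant over that of the minor gene, introns included, had a median of 1.03 (quartiles 0.783 and 1.21), beside 0.982 (0.812 and 1.15) in the other pairs. In 6 pairs the spans differed over 2-fold. The higher homeolog was over 2-fold longer in 4.55% of the 44 pairs, beside 2.27% of the other pairs. It was over 2-fold shorter in 9.09%, beside 4.64%, and these shares were not tested. The dominant gene was longer in tpr (3.87 times) and upk2 (2.57 times) and shorter in carhsp1 (0.143), slc16a3 (0.174), rpa2 (0.324) and ndc80 (0.436). A curated transcript record (RefSeq NM) existed for 15 of the 44 minor homeologs (34.1%), beside 62.1% of the lower homeologs of other pairs, and for 29 dominant homeologs (65.9%), beside 70.3% of the higher ones. Exon lengths were not analysed here, and how reads that fit both homeologs were counted is not given in the sources used here.

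The pairs lay on all 9 chromosome groups. Chromosome 2 held 10 members, beside 147 expressed pairs (5 L-dominant and 5 S-dominant), chromosome 6 held 9 beside 87 (7 and 2). Chromosome 9_10 held 7 beside 115 (4 and 3), and chromosome 8 held 1 beside 104. Expressed pairs were placed by their L gene, and members by the dominant gene or else the minor one. kctd2, whose L gene has no RefSeq position, is thus among the 7 but not the 115. adissp had no position and is on no chromosome here. The nearest pairs on each side of L-dominant members had a median log2 ratio of L over S of 0.93 in the controls (52 neighbours, L higher in 65.4%), those of S-dominant members 0.54 (36 neighbours, L higher in 58.3%), and all 4862 placed pairs 0.15 (L higher in 52.9%). On chromosome 3, ldhb (S-dominant, 3L 20305776 to 20320206 and 3S 6880742 to 6893430) and tmem263 (L-dominant, 3L 21047806 to 21062054 and 3S 7181528 to 7195460) are next to each other among measured pairs and had opposite dominant copies.

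By classes set from symbol patterns, 2 of 30 expressed translation factor pairs were members (eef1a1o and eif5a), 1 of 89 RNA processing pairs (sf3a1), 2 of 14 membrane transport pairs (slc16a3 and slc30a8) and 2 of 26 vesicle traffic pairs (arl13b and rab34). The cytoskeleton and motor class gave 1 of 23 pairs (tubb4a), and energy and lipid metabolism 1 of 21 (ldhb). No member matched the patterns for proteasome and ubiquitin (50 pairs), chaperones (26), cell cycle and replication (29), histones and chromatin (29) or transcription factors (37). The other 42 members were among the 703 pairs in none of the classes (5.97%). The patterns match symbols and miss genes of known role. Among these 42 were ndc80, mis12, rpa2, ckap2, anapc16 and sinhcaf, and also gemin8, pus1, utp23, lima1, eps8l3, pygm and gatm. A class count is thus a count of matching symbols and not of all members with that role. The class counts are small and were not tested.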

How the data were processed

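The deposited table holds a signal that is never negative, which the authors made from single-end Smart-seq2 reads: trimmed with cutadapt 4.4, freed of ribosomal RNA reads, aligned to v10.1 with HISAT2 2.2.1, sorted with SAMtools 1.5, counted per gene with featureCounts 2.0.6, filtered to a mean of at least 5 and divided by a DESeq2 size factor per library. FastQC 0.12.1 and MultiQC 1.14 are also named in the submitters' processing notes. Dividing by the value of 1 read gave whole reads (tolerance 0.01) for 100% of values in all 4 libraries. The table has 0 other columns with values. Symbols were matched to RefSeq (92.1% of 21531 genes) for positions on the same assembly.

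Groups were compared with limma 3.58.1 (R 4.3.3), two-sided and with an intensity trend, after taking log2(normalized count + 1), or log2((L + 1)/(S + 1)) for pairs. Benjamini-Hochberg adjustment ran over all genes or all pairs. edgeR 4.0.16 and DESeq2 1.42.0 on recovered reads were alternatives, beside pseudocounts of 0.5 and 5, a mean of 50 or more, TMM scaling, no trend, a replicate block, leaving out each library, and other limits of the rule. The fits were tested on simulated data. Folds with a minor homeolog at 0 are lower bounds against 3 reads in that library. Exact 95% binomial intervals (Clopper-Pearson) of single folds cover counting error only, because Smart-seq2 reads are PCR copies with no molecular identifier.

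The members and lists were chosen with earlier results of these data known. The rule for named genes took the 10 L-dominant and 10 S-dominant pairs with the highest control level, the 10 with the smallest fold in a sox8 CRISPR library, called genes and the 3 pairs on each side of the limit. The other members were named after their values were seen. 1 member enters all counts but is not reported here by name. Marker lists were written by hand.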

Additional observations from a re-analysis of the deposited data

How the results depend on the processing

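The number of pairs follows the limits of the rule. It was 86 (50 L-dominant) at 16-fold, 28 (15) at 64-fold, 81 (51) with a dominant level of 500 or more, and 36 (21) at 2000 or more. Leaving out 1 control gave 74 to 93 pairs, 43 to 58 of them L-dominant, with 93 and 58 without control replicate 1. L was the more frequent dominant copy at each of these settings. The count of 36 pairs that held in both sox8 CRISPR libraries was between 28 and 50 under alternatives with unlike bases and limits. The 28 were of 38 pairs (73.7%) whose counting interval stayed at 32-fold or more in both controls, and the 50 met an 8-fold limit. On leaving out 1 library the count was between 39 and 43. It was 43 without sox8 CRISPR replicate 1 and 40 without replicate 2, where dominance was asked of only 1 sox8 CRISPR library. Pairs chosen in 1 control gave 43 without control replicate 1 (46.2% of 93) and 39 without control replicate 2 (52.7% of 74). Of the 52 pairs chosen in sox8 CRISPR, 39 were 32-fold apart in both controls. eps8l3.S was the 1 homeolog called, and 0 were called without the intensity trend (0 genes in all), with edgeR (109 genes) or on leaving out any 1 library (0 to 0). DESeq2 called 423 genes and a pseudocount of 5 called 153, against 72 with limma at a pseudocount of 1. The log2 fold change of eps8l3.S was -3.26 to -5.82 on leaving out 1 library and -4.03 with edgeR. The ratio test called 2 members (ccdc50 and eps8l3) of 38 called pairs with a replicate block, 16 of 735 called pairs without sox8 CRISPR replicate 1, and 1 (eps8l3) of 3 called pairs without sox8 CRISPR replicate 2, the range on leaving out 1 library being 0 to 16. A group left with 1 library is assumed to vary like the other. The labels do not say whether equal replicate numbers are paired, and the main fits used no pairing. The differences between replicates 1 and 2 correlated at -0.36 between groups over 13718 genes. With 2 libraries a group this value cannot settle the pairing. With the block 1 homeolog (86 genes) was called. With the numbers crossed, a pairing added after the data were seen, 3 homeologs (776 genes) and 0 ratios were called. Values per kb of exon were not run because exon lengths were not analysed here. Folds from 3 or fewer minor reads (5 and 20 members in sox8 CRISPR, 2 and 2 in controls) have wide intervals.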
